A study of Mus musculus with 9 samples.

Results

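The comparison set 3 libraries from mouse ovaries labelled granulosa cell tumour against 3 from mouse ovaries labelled hyperplasia, 6 of the 9 libraries in the series. Both groups carried 1 wild-type and 1 mutant Foxl2 allele (genotype FOXL2 WT/C134W), so the allele did not differ between them and the labelled disease state did. The other 3 libraries, from ovaries of FOXL2 WT/WT mice, shared the fit and are given beside as a background. The labels used here give no age, no treatment, no promoter driving the allele and no statement that the libraries of a group came from separate animals, so the p-values speak only for the spread among these libraries. The members were all genes measured, 55536 listed and 16213 tested after a filter on low counts, and genes higher in tumours were sought as well as those lower. Libraries are numbered here in the order of their records, which pairs nothing.

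Foxl2 is a forkhead transcription factor of the granulosa cells that surround and nourish the oocyte, and it keeps those cells from taking on features of the testis. The C134W change replaces a cysteine of FOXL2 with a tryptophan and is the recurrent somatic mutation of human adult-type granulosa cell tumours. In a normal ovary, granulosa cells of an ovulated follicle become the luteal cells of the corpus luteum, which make progesterone and are later cleared in part by macrophages. An ovary also holds smooth muscle, vessels, theca cells, surface epithelium and leukocytes, all of which enter a bulk RNA library. In such libraries fewer cells of a type and less RNA per cell cannot be told apart.

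Total counts ran from 13353509 to 19961711 in hyperplasia and from 11661820 to 15163337 in tumours. Between 21462 and 22389 genes had a count in hyperplasia and between 19381 and 20497 in tumours, and mitochondrially encoded genes took 2.54% to 3.25% and 3.84% to 4.19% of the counts, so both measures separated the groups; their part in the results was not tested. Hyperplasia 3 and tumour 3 carry the same stem in their titles, and across the 16213 genes they were the most alike of the 15 pairs of mutant libraries, with a Pearson r of log2(CPM + 1) of 0.979. Hyperplasia 3 had an r of 0.962 and 0.959 with the other two hyperplasia libraries and 0.966 with tumour 1. Tumour 2 stood apart, with an r of 0.898 to tumour 1 and 0.908 to tumour 3. The labels do not say whether the shared stem marks 1 animal.

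Foxl2 itself (ENSMUSG00000050397, chromosome 9, 98955288 to 98958543, GRCm38) was read at 184, 129 and 339 TMM-scaled CPM (counts per 1000000; CPM below) in hyperplasia 1, 2 and 3, at 268, 227 and 388 CPM in tumours 1, 2 and 3, and at 203, 146 and 178 CPM in wild type. The counts sum both alleles, so they show that the gene was transcribed in every library and do not check the mutation. Hyperplasia 3 lay above tumours 1 and 2, the groups overlapped, and the log2 fold change of 0.44 ± 0.37 (SE, n = 3 and 3) did not pass the test (adjusted p = 0.633). All adjusted p-values are from edgeR's quasi-likelihood test with Benjamini-Hochberg adjustment over the 16213 genes unless another tool is named, with a threshold of 0.05, and log2 fold changes are tumour minus hyperplasia, with their SE after ± and 3 libraries in each group.

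Genes that fell in tumours included 5 of the list of lipid-laden and giant cell macrophages, genes such as Ptprc and Itgb2 that leukocytes express, the luteal gene Ptgfr and the smooth muscle gene Lmod1. In all, 30 genes were called lower in tumours, 0.185% of those tested, and 0 were called higher, 0.0%. The 30 comprised 29 protein-coding genes and 1 long non-coding RNA on 15 chromosomes, with log2 fold changes from -7.53 to -1.90 and a median of -3.53. In each of the 30 all 3 tumours lay below all 3 hyperplasia libraries, an order found in 2006 genes, 12.4% of those tested; the reverse order was found in 1547 genes, 9.54%. Hyperplasia 3 was the hyperplasia library nearest to the tumours in 24 of the 30, and in 1337 of the 2006 genes with all tumours below. Before adjustment, 764 higher and 1523 lower genes had a p under 0.05, and the smallest adjusted p of a higher gene was 0.0659. The median log2 fold change of all genes tested was 0.05.

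**Figure D1:**
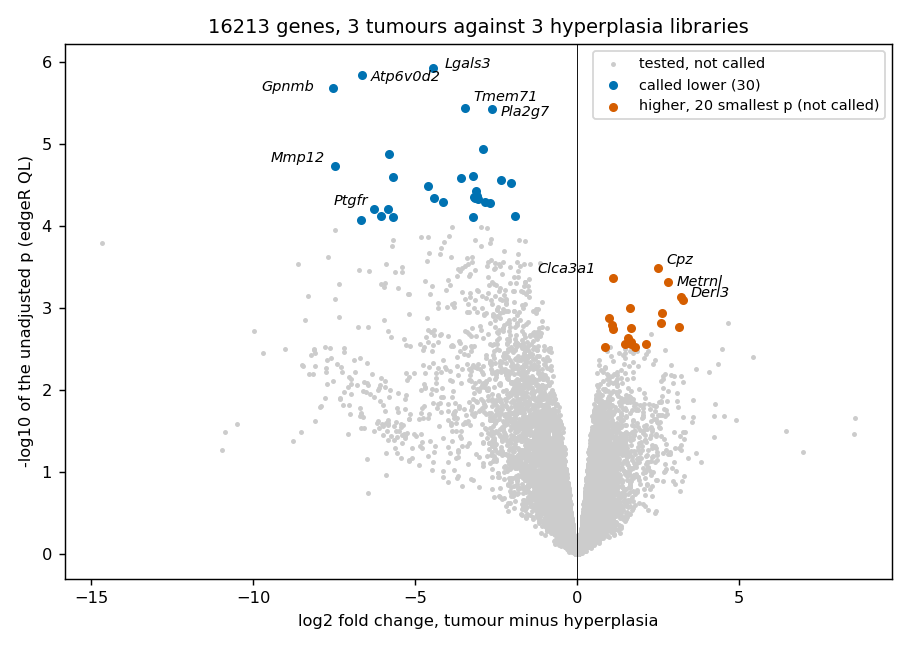
Each point is 1 of the 16213 genes tested; the x axis is the log2 fold change (tumour minus hyperplasia) and the y axis is -log10 of the unadjusted p of edgeR's quasi-likelihood test. The 30 genes called lower (blue) lie at log2 fold changes of -1.90 or below, and the 20 higher genes of smallest p (orange) lie beneath them on the y axis and were not called.

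How many genes passed depended on the tool and on single libraries. Each of the 30 was lower in tumours in all 21 other settings. That direction is no separate support, because in each of the 30 every tumour lay below every hyperplasia library. Leaving out libraries could hardly reverse it. DESeq2's Wald test called 697 genes lower and 119 higher, 4.3% and 0.734% of those tested, and all 30 were among its calls; limma-voom called 4 lower and 0 higher. Without hyperplasia 3 there were 116 lower and 12 higher calls of 16649 genes, 0.697% and 0.0721%, with all 30 kept. Without hyperplasia 1, 8 of the 30 remained, and without hyperplasia 2, 3. Leaving out tumour 1, 2 or 3 kept 2, 7 and 0 of the 30, and leaving out wild type 1, 2 or 3 kept 6, 12 and 5. In a fit of the 6 mutant libraries alone 1 of the 30 passed. With a term for the shared title stem 11 passed, and without both libraries of that stem 0 did.

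**Figure D2:**
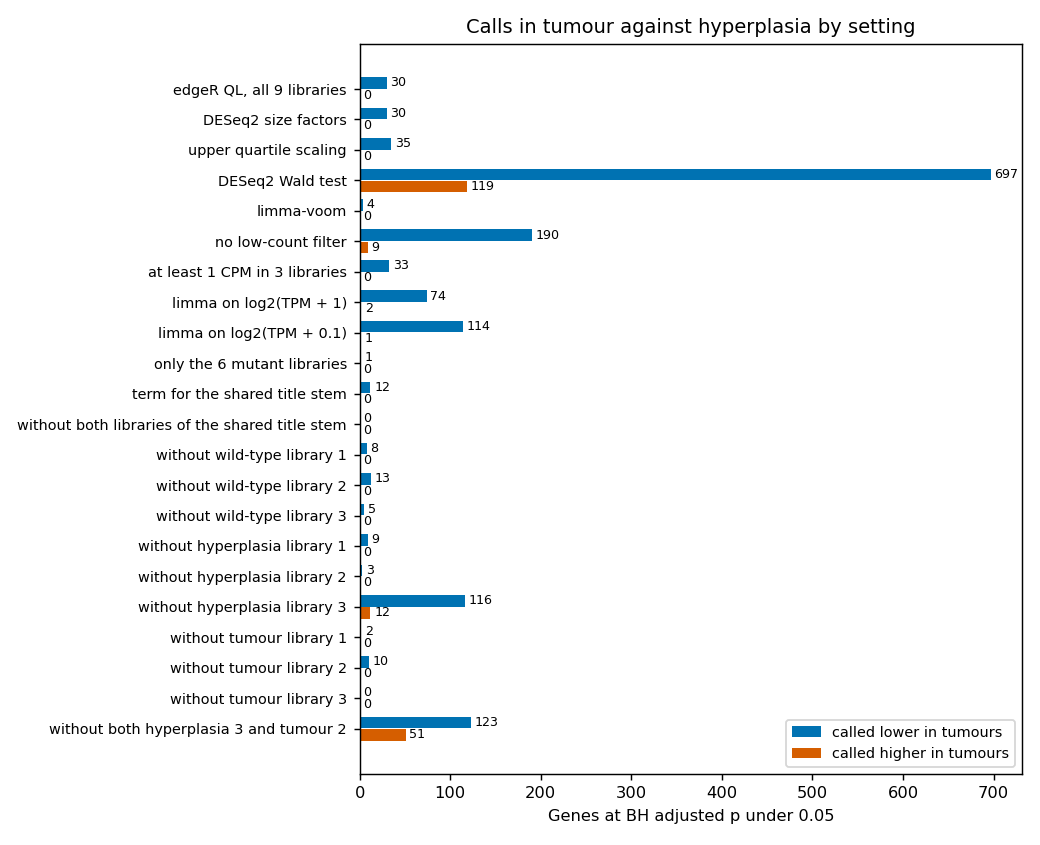
Bars give the number of genes at a Benjamini-Hochberg adjusted p under 0.05 in tumours against hyperplasia, lower in blue and higher in orange, with 1 pair of bars for each setting. Calls of lower genes ranged from 0 (without tumour library 3, and without both libraries of the shared title stem) to 697 (DESeq2), and calls of higher genes appeared in 6 settings, reaching 51 without both hyperplasia 3 and tumour 2 and 119 with DESeq2.

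Genes of macrophages that have taken up lipid or fused into giant cells were among those that fell most. Gpnmb, a transmembrane glycoprotein of such macrophages (ENSMUSG00000029816, chromosome 6, 49036546 to 49070929), was at 639, 291 and 143 CPM in hyperplasia and at 1.59, 1.07 and 3.11 CPM in tumours. It was the gene of the lowest log2 fold change among those called, -7.53 ± 0.72 (SE, adjusted p = 0.011), a level 185-fold higher in hyperplasia, and wild-type ovaries held 129.8, 135 and 223 CPM. The tumours thus lay far below both other groups. Lgals3, a galactoside-binding lectin (ENSMUSG00000050335, chromosome 14, 47367751 to 47386160), was at 125, 96.9 and 97.4 CPM in hyperplasia and 2.25, 7.02 and 5.54 CPM in tumours. Its log2 fold change was -4.44 ± 0.40 (SE, adjusted p = 0.011), and it passed in 18 of the 21 other settings. Atp6v0d2, a proton-pump subunit with a role in macrophage fusion (chromosome 4, 19876841 to 19922605), was at 67.9, 31.4 and 28.3 CPM against 0.132, 0.683 and 0.504 CPM, a log2 fold change of -6.64 ± 0.61 (SE, adjusted p = 0.011). None of the 3 genes overlapped between the groups.

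The bases before the start of Gpnmb and Lgals3 are shown because both genes were called lower, and in both every tumour also lay below every wild-type library. Each run is the 250 bases before the RefSeq start (GRCm38.p6), 5′ to 3′ on the gene's strand, and capitals mark CAGAC or its reverse complement, a motif of the SMAD factors of TGF-beta signalling, the only one of the 3 motifs searched that was found here. Gpnmb is read from chr6:49036268-49036517 and Lgals3 from chr14:47373610-47373859, both on the plus strand.
Gpnmb: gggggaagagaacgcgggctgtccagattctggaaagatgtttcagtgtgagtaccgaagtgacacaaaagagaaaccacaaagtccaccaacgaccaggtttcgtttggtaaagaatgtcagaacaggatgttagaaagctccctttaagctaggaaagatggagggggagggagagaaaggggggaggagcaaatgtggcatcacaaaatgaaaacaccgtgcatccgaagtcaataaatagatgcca
Lgals3: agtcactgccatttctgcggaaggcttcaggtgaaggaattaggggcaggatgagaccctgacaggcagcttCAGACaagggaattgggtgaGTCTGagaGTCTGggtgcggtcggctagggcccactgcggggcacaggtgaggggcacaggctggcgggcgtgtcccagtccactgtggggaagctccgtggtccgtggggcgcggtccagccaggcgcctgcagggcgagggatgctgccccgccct

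Mmp12, the macrophage elastase, was read at 139, 37.7 and 67.9 CPM in hyperplasia and at 0.0662, 1.07 and 0.336 CPM in tumours (log2 fold change -7.46 ± 0.93, adjusted p = 0.0363; -8.71 without tumour 2). Itgax, the alpha chain of a leukocyte integrin, was at 34.9, 17.5 and 16.2 CPM against 1.66, 2.73 and 1.34 CPM (-3.58 ± 0.47, adjusted p = 0.0363). These 5 genes were called by edgeR of 14 measured in the list of lipid-laden and giant cell macrophages, 9 of which did not overlap with tumours below. The list's median log2 fold change was -2.52 (-3.78 without tumour 2). By DESeq2's Wald test 8 of the 14 were called lower. The list summed to 880.2 to 2057 CPM in hyperplasia and 359 to 898 CPM in tumours, so the sums overlapped, with tumour 2 above hyperplasia 3. Spp1, which encodes the secreted phosphoprotein osteopontin, missed the threshold (adjusted p = 0.0524) with 459, 251 and 84.2 CPM in hyperplasia and 0.132, 3.71 and 0.84 CPM in tumours. Trem2, a lipid-sensing receptor of macrophages, had a log2 fold change of -2.46 ± 0.61 (adjusted p = 0.143), or -3.64 without tumour 2. The list did not move as 1 block: Ctsk, a lysosomal protease, was at 30.3, 19.6 and 37.2 CPM against 44.8, 24.2 and 29.4 CPM, groups that overlapped. Cd36, a scavenger receptor of many cell types, was at 130.3, 91.1 and 119.5 CPM against 119.7, 525 and 121 CPM, highest in tumour 2.

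Markers shared by most tissue macrophages gave no call with edgeR. Of 14 measured in the macrophage list 0 were called, 6 lay below in all tumours, and the median log2 fold change was -0.77 (-1.31 without tumour 2). Of all genes tested 0.185% were called lower, so 0 calls in so short a list is not unusual. The order with all tumours below was found in 12.4% of all genes. These shares apply to the other lists too. DESeq2's Wald test called 5 of the 14 lower. Adgre1, a receptor used to mark mouse macrophages, was at 20.9, 22.9 and 18.6 CPM in hyperplasia and 10.3, 21.1 and 8.48 CPM in tumours (-0.65 ± 0.36, adjusted p = 0.459). Csf1r, the receptor of the main macrophage growth factor, was at 60.1, 49.5 and 51 CPM against 41.5, 38.5 and 28.6 CPM (-0.56 ± 0.26, adjusted p = 0.364). C1qa, a complement component made by macrophages, was at 37.5, 61.2 and 48.3 CPM against 22.7, 60.5 and 24.6 CPM. Tumour 2 thus stood at the hyperplasia level for Adgre1 and C1qa and tumours 1 and 3 beneath it. Cd68, a lysosomal membrane protein of macrophages, was at 70.2, 42.8 and 38.6 CPM against 4.63, 16.6 and 8.23 CPM and came near the threshold (-2.37 ± 0.46, adjusted p = 0.0774; -2.98 without tumour 2). The summed level of the 14 genes was 735 to 1137 CPM in hyperplasia and 217 to 639 CPM in tumours, so macrophage markers were present in every tumour library.

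Several called genes are expressed across leukocytes. Ptprc, the common leukocyte antigen, fell from 38.2, 23.8 and 22.7 CPM in hyperplasia to 6.42, 6.83 and 7.14 CPM in tumours, a log2 fold change of -2.05 ± 0.27 (SE, adjusted p = 0.0363). Itgb2, the beta chain that pairs with Itgax, fell from 70.7, 35.7 and 30.2 CPM to 5.43, 6.44 and 6.3 CPM (-2.91 ± 0.34, adjusted p = 0.0305). In both genes the 3 tumours lay close together and the spread was within hyperplasia. Pla2g7, which encodes the enzyme that inactivates platelet-activating factor, fell from 48, 36.1 and 26.1 CPM to 5.36, 6.63 and 5.71 CPM (-2.64 ± 0.27, adjusted p = 0.0122). Cd53, a tetraspanin, Hk3, a hexokinase of myeloid cells, and Ly9, a receptor of the SLAM family, also fell, with log2 fold changes of -2.35, -3.13 and -3.10 and an adjusted p of 0.0363 for each. Cd200r1, a receptor that restrains myeloid cells, fell by 4.13 on the log2 scale (adjusted p = 0.0363) and was under 1 CPM in each tumour. Gpr141, an orphan receptor, fell from 13.1, 6.88 and 5.94 CPM to 0.199, 0.0975 and 0.168 CPM (adjusted p = 0.0434). Lilr4b, a leukocyte immunoglobulin-like receptor, fell by 4.60 on the log2 scale (adjusted p = 0.0363), but it has a near-identical neighbour, so its share of the reads is uncertain.

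Lymphocyte and chemokine genes gave no call with edgeR. In the list of T and B lymphocytes 11 genes were measured, 6 lay below in all tumours and the median log2 fold change was -1.67. DESeq2's Wald test called 1 of them lower. Cd4 was at 15.1, 7.61 and 10.1 CPM in hyperplasia and 2.25, 2.15 and 4.03 CPM in tumours (-1.96 ± 0.42, adjusted p = 0.0959). Wild type, at 2.34, 3.24 and 3.51 CPM, lay at the level of the tumours, with hyperplasia above both. Cd3e, part of the T cell receptor complex, was at 4.07, 1.59 and 3.07 CPM against 0.794, 0.683 and 1.01 CPM (adjusted p = 0.2). Of 24 chemokine and receptor genes measured 14 lay below in all tumours and 0 were called, with a median of -1.45. With DESeq2's Wald test 8 of the 24 were called lower. Ccl6 was the one of smallest p (adjusted p = 0.0943), at 17.2, 41.6 and 12.3 CPM against 1.46, 4.88 and 1.51 CPM.

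**Figure D3:**
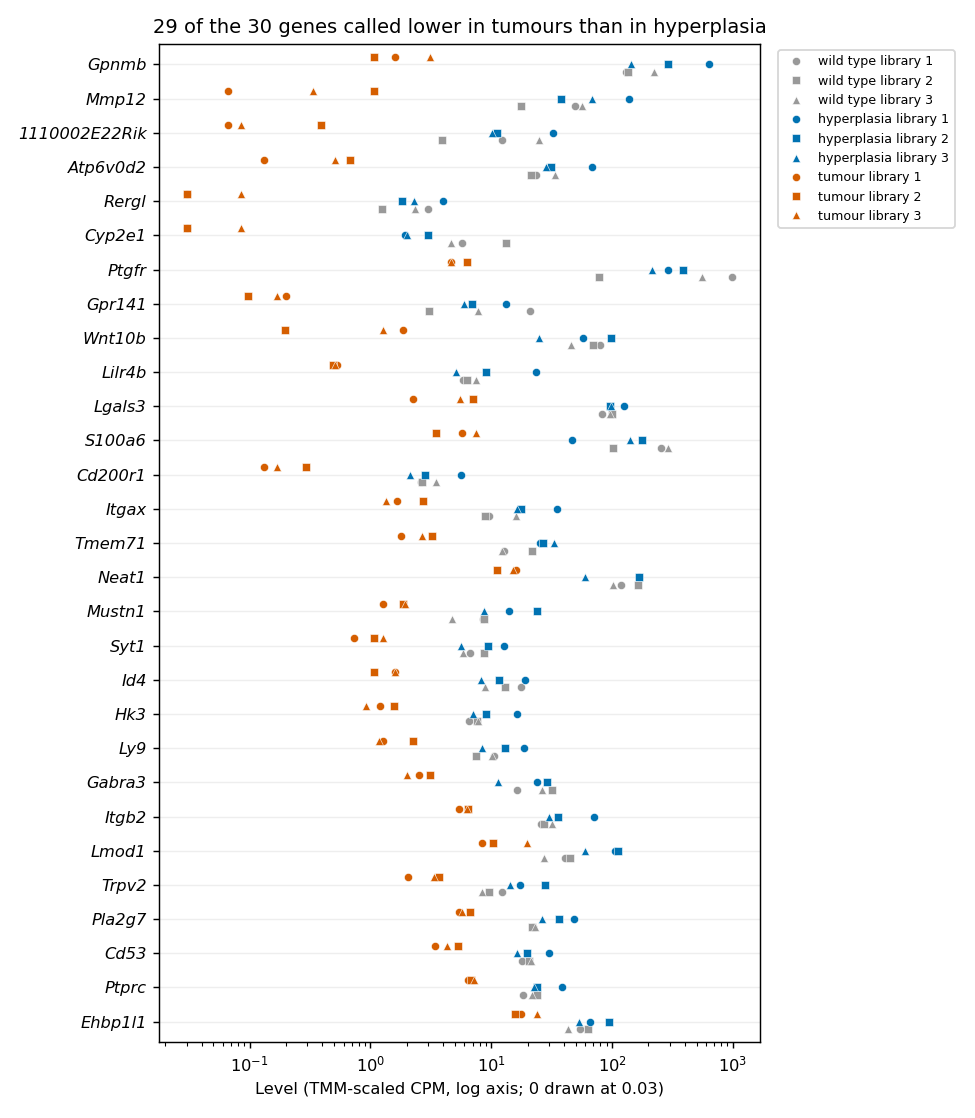
Each row is 1 of 29 of the 30 genes called lower in tumours, ordered by log2 fold change, and each point is 1 library at its TMM-scaled CPM on a log axis, with values of 0 drawn at 0.03. The tumour points (orange) lie to the left of the hyperplasia points (blue) in every row, and so do they against the wild-type points (grey).

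Among luteal genes Ptgfr, the receptor through which prostaglandin F triggers regression of the corpus luteum (ENSMUSG00000028036, chromosome 3, 151796502 to 151837630), fell in tumours. It was at 291, 385 and 214 CPM in hyperplasia and 4.63, 6.24 and 4.62 CPM in tumours, a log2 fold change of -5.84 ± 0.84 (SE, adjusted p = 0.0402). Wild-type ovaries spread widely, at 991, 77.4 and 552 CPM, and all lay above the tumours. Ptgfr was the 1 gene called by edgeR of 11 measured in the luteal list, of which 8 lay below in all tumours. The list's median log2 fold change was -2.64. DESeq2's Wald test called 8 of the 11 lower, against 4.3% of all genes tested. The list summed to 13287, 12755 and 6812 CPM in hyperplasia and 1447, 3091 and 1404 CPM in tumours. The 250 bases before the RefSeq start of Ptgfr, chr3:151837529-151837778 on the minus strand of GRCm38.p6, hold none of the 3 motifs searched and so have no capitals.
Ptgfr: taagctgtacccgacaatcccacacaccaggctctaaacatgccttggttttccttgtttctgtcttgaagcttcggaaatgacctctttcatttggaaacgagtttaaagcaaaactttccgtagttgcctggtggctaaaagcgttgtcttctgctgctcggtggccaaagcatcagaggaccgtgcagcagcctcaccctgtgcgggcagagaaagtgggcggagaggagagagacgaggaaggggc

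Star, which carries cholesterol into the mitochondrion, was at 1898, 1258 and 604 CPM in hyperplasia and 198, 342 and 248 CPM in tumours (-2.25 ± 0.45, adjusted p = 0.0817). Cyp11a1, the enzyme of the first step of steroid synthesis, was at 4766, 6632 and 1959 CPM against 642, 1042 and 459 CPM (-2.64 ± 0.55, adjusted p = 0.0889). Both passed without hyperplasia 3, the hyperplasia library of the lowest level (adjusted p = 0.0417 and 0.0481). Sfrp4, a secreted Wnt antagonist, was at 2474, 1976 and 2025 CPM against 84.4, 20 and 71.2 CPM (-5.20 ± 1.13, adjusted p = 0.0991), with wild type anywhere from 182 to 5409.7 CPM. Prlr, the prolactin receptor that sustains the rodent corpus luteum, was at 739.5, 512 and 268 CPM against 50.7, 31.3 and 123 CPM (-2.89 ± 0.63, adjusted p = 0.0991). Scarb1, the receptor for high-density lipoprotein, and Parm1 overlapped between the groups, so the list was not uniformly low.

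Across the steroid synthesis list 0 of 19 measured genes were called with edgeR, 8 lay below in all tumours and the median was -0.90. By DESeq2's Wald test 6 of the 19 were called lower. Cyp19a1, the aromatase that makes oestrogen, was at 107, 2.75 and 27.8 CPM in hyperplasia and 2.19, 83.2 and 33 CPM in tumours, so neither group was uniform. In the list of cholesterol synthesis and uptake 0 of 20 were called with edgeR, 8 lay below and the median was -1.30. By DESeq2's Wald test 8 of the 20 were called lower. The list summed to 6360, 2855 and 2564 CPM in hyperplasia and 1995, 1787 and 2422 CPM in tumours, with hyperplasia 1 the highest. Of 11 genes of ovulation and cumulus expansion measured 0 were called by edgeR and 3 were called lower by DESeq2's Wald test. Ptgs2, the inducible prostaglandin synthase of the ovulating follicle, was at 7.66, 4.2 and 5.66 CPM against 0.199, 0.0975 and 0 CPM (-5.71 ± 0.94, adjusted p = 0.0607). Wild type lay between the groups for Ptgs2, at 0.298, 1.94 and 1.15 CPM. Mgarp, a mitochondrial protein of steroid-making cells, was at 436, 909.5 and 282 CPM against 85.7, 83.8 and 90.5 CPM (-2.65 ± 0.43, adjusted p = 0.0577).

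All 10 smooth muscle genes measured lay below in all tumours, with a median of -2.95. DESeq2's Wald test called 9 of them lower, and edgeR called 1. That gene was Lmod1, which nucleates actin filaments in smooth muscle, at 106, 111 and 59.5 CPM in hyperplasia and 8.41, 10.3 and 19.8 CPM in tumours (-2.84 ± 0.40, adjusted p = 0.0363). Acta2, smooth muscle actin, was at 1411, 1960.2 and 870.3 CPM against 208, 201 and 382 CPM (-2.42 ± 0.43, adjusted p = 0.0659), and Tagln, an actin-binding protein, at 952, 1451 and 684 CPM against 89.2, 58.5 and 221 CPM (-3.06 ± 0.60, adjusted p = 0.0786). In these 3 genes hyperplasia 3 and tumour 3, the libraries of the shared title stem, were the nearest to the other group. Myh11, smooth muscle myosin, was at 1332, 1665 and 719 CPM against 76.4, 43.3 and 275 CPM (-3.23 ± 0.81, adjusted p = 0.144). The summed level of the list was 4582, 6475 and 2716 CPM in hyperplasia, 524, 428 and 1125 CPM in tumours and 1991, 2662 and 1235 CPM in wild type. Of 12 endothelial genes measured 6 lay below, 0 were called with edgeR and the median was -0.41. DESeq2's Wald test called 4 of the 12 lower. Mustn1, a small nuclear protein of muscle and skeleton, also fell, from 14, 24.1 and 8.63 CPM to 1.26, 1.85 and 1.93 CPM (-3.21 ± 0.48, adjusted p = 0.0434).

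Genes of signalling and of the plasma membrane made up most of the rest. Wnt10b, a Wnt ligand, fell from 57, 97.5 and 24.9 CPM in hyperplasia to 1.85, 0.195 and 1.26 CPM in tumours (-5.70 ± 0.74, adjusted p = 0.0363); it was the 1 called gene of 28 measured in the Wnt list, whose median was -0.21. Id4, which blocks basic helix-loop-helix factors and responds to BMP signals, fell from 18.9, 11.5 and 8.2 CPM to 1.59, 1.07 and 1.6 CPM (-3.17 ± 0.44, adjusted p = 0.0363). It was the 1 called gene of 36 measured in the list of TGF-beta, activin and BMP signalling, with 9 below, 1 above and a median of -0.15. Tgfb1, a ligand of the pathway, was at 73.9, 83.3 and 65.8 CPM against 27.1, 34.8 and 43 CPM (-1.09 ± 0.22, adjusted p = 0.0878), and Id2, a relative of Id4, at 94, 117 and 83.5 CPM against 21.3, 20.4 and 39.6 CPM (-1.86 ± 0.42, adjusted p = 0.114). Neither passed, though in both all tumours lay below hyperplasia. Syt1, the calcium sensor of vesicle release, and Gabra3, a subunit of the GABA receptor, fell by 3.17 and 3.06 on the log2 scale, and Trpv2, a cation channel, fell from 17.2, 27.9 and 14.2 CPM to 2.05, 3.71 and 3.36 CPM, each with an adjusted p of 0.0363.

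S100a6, a calcium-binding protein, fell from 46.4, 176 and 139.9 CPM to 5.76, 3.51 and 7.48 CPM (-4.43 ± 0.61, adjusted p = 0.0363), and here hyperplasia 1 was nearest to the tumours. It was the 1 called gene of 11 measured in the S100 family. Neat1, the long non-coding RNA that builds nuclear paraspeckles (chromosome 19, 5824708 to 5845478), fell from 167, 167 and 60 CPM to 15.9, 11.1 and 15.1 CPM (-3.22 ± 0.41, adjusted p = 0.0363). Malat1, another abundant nuclear RNA, was at 386, 382 and 122 CPM against 75.5, 188 and 106 CPM and overlapped between the groups (adjusted p = 0.274). Tmem71 fell from 25.2, 26.9 and 32.9 CPM to 1.79, 3.22 and 2.69 CPM (-3.47 ± 0.35, adjusted p = 0.0122). Ehbp1l1, a protein of endosomal traffic, had the smallest change of the 30, from 66, 94.5 and 53.5 CPM to 17.6, 15.8 and 23.8 CPM (-1.90 ± 0.28, adjusted p = 0.0434). Rergl, a Ras-like protein, and Cyp2e1, a cytochrome P450 that oxidises ethanol, each had 1 count over the 3 tumours, in tumour 3, against 147 and 119 counts in hyperplasia. The ratios of 103 and 83.1 have exact 95% intervals for counting error only of 18.1 to 4080 and 14.6 to 3310. The remaining called gene, the clone locus 1110002E22Rik, fell from 32.1, 11.2 and 10.1 CPM to 0.0662, 0.39 and 0.084 CPM (-6.67 ± 1.00, adjusted p = 0.0451).

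In the bases printed above, Lgals3 held 3 matches of CAGAC, with first bases 178, 158 and 150 bases before the start, and its RefSeq start lay 6109 bases from the start of the GENCODE gene. Neither Gpnmb nor Ptgfr held a match. Over windows of 300 bases, 250 before to 50 after the start, on both strands, CAGAC was found in 8 of the 23 called genes that have a window, 34.8%, against 47.9% of the 11712 windows of all genes tested. In the list of lipid-laden and giant cell macrophages it was found in 8 of 10 windows, 80.0%, Gpnmb not among them, and in the luteal and smooth muscle lists in 3 of 7 and 4 of 6. AAGGTCA, a binding motif of steroidogenic factor 1, was in 0 of the 23 and in 3.19% of all windows, and GTAAACA, a forkhead core, was in 1 of the 23, Lilr4b, and in 2.44% of all windows. No motif contains another, though AAGGTCA and GTAAACA can each overlap CAGAC at their ends. A match describes letters only.

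No gene was called higher in tumours by edgeR with all 9 libraries, so the genes of smallest p are described by their values. DESeq2's Wald test called each of the 20 described here, with adjusted p-values from 1.34e-05 (Cpz) to 0.00898 (Dcakd). The choice of the 20 was made on edgeR's p from the same libraries. The 20 of smallest p among those whose groups did not overlap include secreted and matrix proteins, a pair of carboxypeptidases, an enzyme of prostaglandin breakdown and RNA polymerase subunits, and their log2 fold changes ran from 0.85 to 3.27. Hyperplasia 3 was the hyperplasia library nearest to the tumours in 19 of the 20, tumour 2 was the highest in 16 and tumour 3 the nearest to hyperplasia in 15. Among all 1547 genes with every tumour above every hyperplasia library, the same counts were 998, 989 and 904, so these orders were common. Metrnl, a secreted meteorin-like protein (ENSMUSG00000039208, chromosome 11, 121701544 to 121716306), was at 41.4, 33 and 100.3 CPM in hyperplasia and 410.3, 626 and 186 CPM in tumours. Its log2 fold change was 2.81 ± 0.53 (SE, adjusted p = 0.0753), and it passed without hyperplasia 3 (3.45, adjusted p = 0.0417). Thbs1, the matrix protein thrombospondin, was at 1059, 955 and 1526 CPM against 2894, 5362 and 2966 CPM (1.66 ± 0.38, adjusted p = 0.121), with wild type lower still at 332, 492 and 598 CPM.

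Cpz, a secreted carboxypeptidase, had the smallest p, at 3.16, 3.12 and 4.99 CPM in hyperplasia and 34.2, 18.3 and 10.6 CPM in tumours (2.48 ± 0.45, adjusted p = 0.0659). Cpm, a membrane carboxypeptidase, was at 3.1, 4.78 and 6.81 CPM against 18.5, 95.3 and 15.9 CPM (3.14 ± 0.72, adjusted p = 0.12), a log2 fold change that was 1.81 without tumour 2. Clca3a1, of a family of near copies whose reads the counting could split, was at 21.1, 17.5 and 18.3 CPM against 39.7, 42.8 and 40 CPM (1.10 ± 0.21, adjusted p = 0.0727). Wild type lay beneath hyperplasia at 9.85, 10 and 13 CPM. Derl3, a factor of protein disposal from the endoplasmic reticulum, was at 8.19, 4.64 and 9.54 CPM against 56.5, 135 and 17.1 CPM (3.21 ± 0.65, adjusted p = 0.0831; 2.30 without tumour 2), and wild type at 15.5 to 18.1 CPM reached the level of tumour 3. Capn6, a calpain without protease activity, was at 0.91, 1.16 and 2.78 CPM against 6.62, 22.1 and 18.6 CPM (3.27 ± 0.67, adjusted p = 0.0844). Hpgd, the main enzyme that inactivates prostaglandins, was at 32.9, 14.7 and 62 CPM against 166, 198 and 114 CPM (2.12 ± 0.52, adjusted p = 0.143).

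Adgrv1, a very large adhesion receptor, was at 36.2, 24.3 and 57 CPM in hyperplasia and 102, 147 and 116 CPM in tumours (1.63 ± 0.34, adjusted p = 0.0943). Kazald1, a secreted protein with an insulin-like growth factor binding domain, was at 6.16, 3.98 and 15.9 CPM against 36.3, 89.5 and 30.6 CPM (2.58 ± 0.58, adjusted p = 0.114; 1.94 without tumour 2). Polr1b and Polr3g, subunits of RNA polymerases I and III, had log2 fold changes of 1.11 and 1.47 (adjusted p = 0.123 and 0.143). Cnnm1, Pomgnt2, Rnf19b, Sytl4, Zfp41, Cables1 and Dcakd had adjusted p-values from 0.0959 to 0.144.

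**Figure D4:**
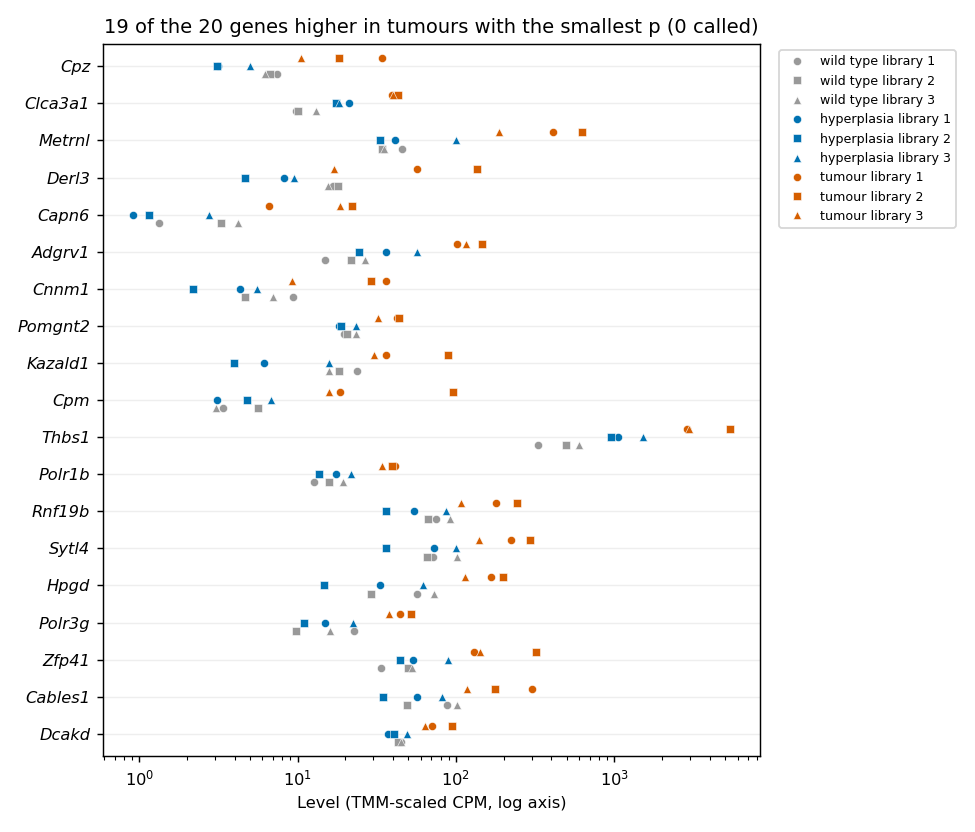
Each row is 1 of 19 of the 20 genes higher in tumours with the smallest p and groups that do not overlap, a choice made on these values, and each point is 1 library at its TMM-scaled CPM on a log axis. Hyperplasia 3 (blue) was the hyperplasia library nearest to the tumours in 18 of the 19 rows and tumour 3 (orange) the tumour nearest to hyperplasia in 14. None passed the threshold with edgeR and all libraries, and DESeq2's Wald test called each of them.

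Without hyperplasia 3, 12 genes were called higher in tumours: Metrnl, Adgrv1, Kazald1, Lamc3, Coq8a, Apoa1, Fndc5, Col26a1, Kcng4, Bmyc, 2810039B14Rik and Gm46519. In each of them hyperplasia 3 was the highest hyperplasia library. The choice itself favours that order, because edgeR called these genes without that library and not with all 9. Without it the log2 fold changes of Metrnl, Kazald1, Capn6 and Hpgd were 3.45, 3.36, 3.92 and 2.74. Lamc3, a laminin chain of basement membranes, was at 50, 33.3 and 120.2 CPM in hyperplasia and 317, 223 and 187 CPM in tumours, with an adjusted p of 0.145 with all libraries and 0.0417 without hyperplasia 3. Coq8a, a kinase-like protein of coenzyme Q synthesis, was at 105, 69.5 and 248 CPM against 458, 419 and 405 CPM (adjusted p = 0.169, and 0.0417 without hyperplasia 3). In both genes hyperplasia 3 lay between the other hyperplasia libraries and the tumours. Col26a1, a collagen first known from testis and ovary, was at 9.37, 6.74 and 96.9 CPM against 120.3, 39.7 and 118 CPM, and Kcng4, a silent potassium channel subunit, at 1.18, 1.01 and 20.6 CPM against 25.2, 11.7 and 16.7 CPM. In these the level of hyperplasia 3 was inside the range of the tumours, so the groups overlapped with all libraries in (adjusted p = 0.555 and 0.62). Wild-type ovaries were at 13.1 to 19.7 CPM for Col26a1 and 1.3 to 2.64 CPM for Kcng4.

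Foxl2, Inha, Esr2 and Nr5a1, markers of granulosa cells, were read in all 3 tumours, while tumour 2 was at or near 0 for Fshr and Amh. Of the 19 granulosa cell genes measured 0 were called, 2 lay above and 1 below in all tumours, and the median log2 fold change was 0.54. Esr2, the oestrogen receptor of granulosa cells, was at 95.3, 44.6 and 106 CPM in hyperplasia and 231, 182 and 163 CPM in tumours (1.22 ± 0.37, adjusted p = 0.203). Inha, the alpha subunit of inhibin and a serum marker of granulosa cell tumours, was at 1438, 499 and 1633 CPM against 2402, 2819.8 and 3021 CPM (1.21 ± 0.51, adjusted p = 0.332). Both lay above hyperplasia in all 3 tumours without passing. Fitted changes were above 0 in 16 of the 19 genes and below 0 in 3, and the share above 0 among all genes was not counted. The list summed to 7433, 2620 and 6082 CPM in hyperplasia and 7272, 7713 and 9272 CPM in tumours, so the sums overlapped. Its median was 0.09 on log2(TPM + 1), where the median of all genes was -0.23. By DESeq2's Wald test 1 of the 19 was called higher. The gene below in all tumours was Runx1, at 43.6, 114.5 and 52.1 CPM against 26.75, 8 and 32 CPM (-1.65 ± 0.80, adjusted p = 0.39). Inhba was at 1228, 83 and 163.9 CPM against 14.4, 84.5 and 140.7 CPM, groups that overlapped (-2.62 ± 1.20, adjusted p = 0.367). Nr5a1, steroidogenic factor 1, was at 303, 184 and 238 CPM against 251, 239.7 and 248 CPM. Fshr, the receptor for follicle-stimulating hormone, split the tumours, with 81.8 and 80.7 CPM in tumours 1 and 3 and 0 counts in tumour 2, against 7.98, 2.46 and 36.1 CPM in hyperplasia. Wt1, a transcription factor of granulosa cells and of the surface epithelium, was at 422, 2.54 and 205 CPM in tumours 1, 2 and 3, and Amh, the hormone of growing follicles, at 7.81, 0.0975 and 39.4 CPM against 12.4, 6.59 and 16.3 CPM in hyperplasia and 211 to 222 CPM in wild type.

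Genes of the testis gave 0 edgeR calls of 11 measured, with 2 above, 2 below and a median of 0.10 (0.51 without tumour 2). DESeq2's Wald test called 1 of the 11 higher and 2 lower. Sox9, the factor that directs Sertoli cells, was at 5.46, 6.52 and 15.3 CPM in hyperplasia and 18.7, 39.9 and 9.83 CPM in tumours (1.32 ± 0.56, adjusted p = 0.337; 0.65 without tumour 2), so hyperplasia 3 lay above tumour 3. Gdnf, a growth factor of Sertoli cells, was at 9.69, 3.91 and 9.35 CPM against 11.8, 147 and 22.9 CPM (2.98 ± 0.86, adjusted p = 0.185), highest in tumour 2, without which the log2 fold change was 1.18. Cyp26b1, which breaks down retinoic acid, was at 13.4, 19.8 and 9.11 CPM against 2.98, 1.75 and 1.51 CPM, and missed the threshold (-2.75 ± 0.51, adjusted p = 0.0719).

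Surface epithelium markers followed the same split. The 12 genes of that list summed to 433, 599 and 1192 CPM in hyperplasia, to 2582 and 1054 CPM in tumours 1 and 3 and to 8.29 CPM in tumour 2, and 0 were called or separated the groups. Upk3b, a membrane protein of mesothelium, was at 472, 0.0975 and 142 CPM in the tumours against 64.7, 88.2 and 184 CPM in hyperplasia. Cell cycle genes were highest in tumour 2: the 28 of that list summed to 658, 1295 and 656 CPM in tumours 1, 2 and 3 against 685, 882 and 485 CPM in hyperplasia, with 0 called. Their median log2 fold change was 0.43, and -0.23 without tumour 2, so its sign rested on that library. Wild-type ovaries summed to 1056, 1331 and 1109 CPM, above tumours 1 and 3.

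**Figure D5:**
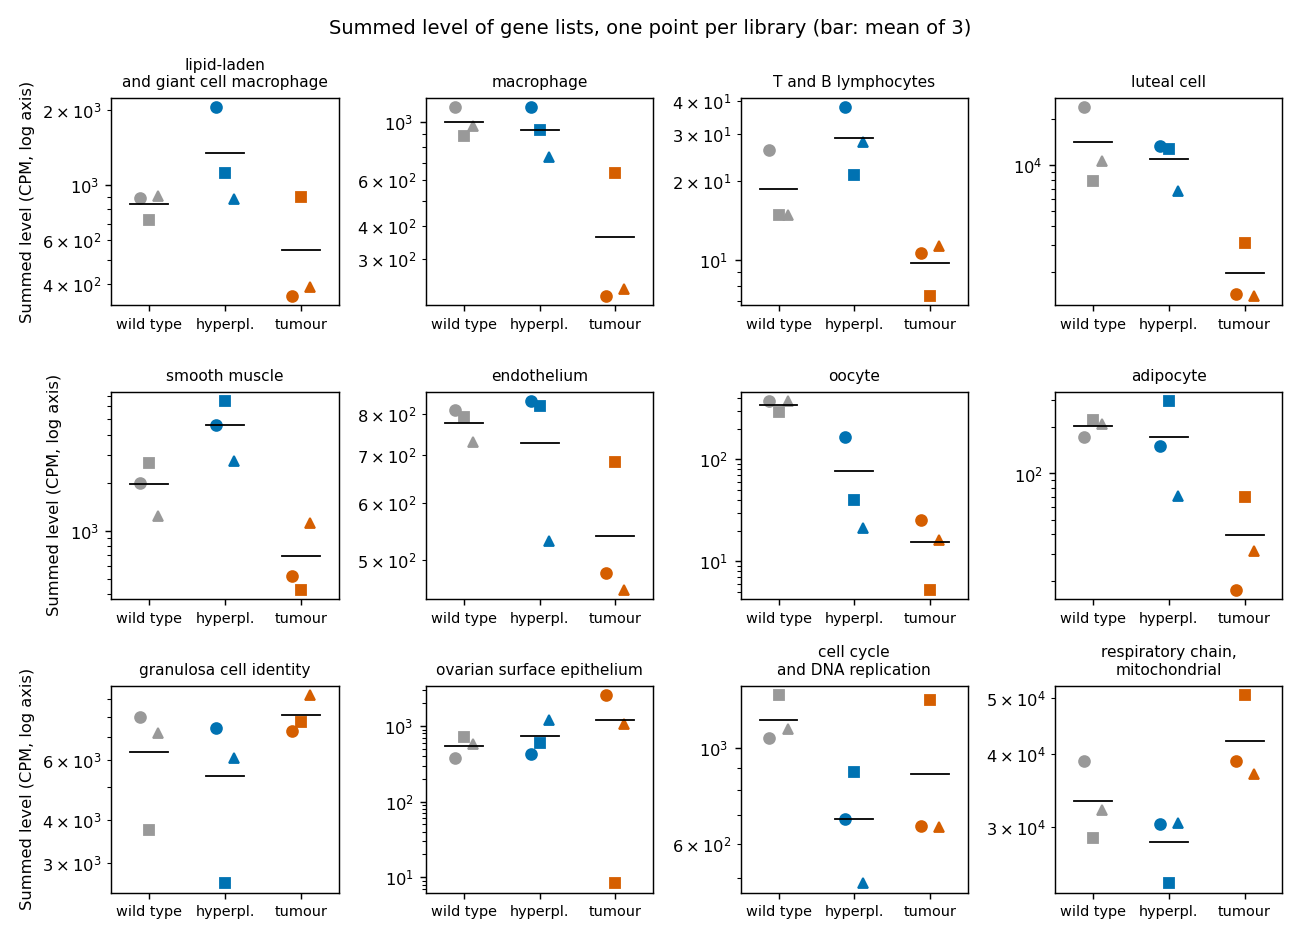
Each panel is 1 gene list, each point the summed TMM-scaled CPM of its genes in 1 library on a log axis, and each bar the mean of the 3 libraries of a group. Tumours lie under hyperplasia for the luteal, smooth muscle, macrophage and lymphocyte lists, tumour 2 (square) is near 0 for the surface epithelium, and tumours lie above hyperplasia for the mitochondrially encoded genes.

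Oocyte genes summed to less in every mutant library than in wild type, and the sums of tumours and hyperplasia overlapped, with tumour 1 above hyperplasia 3. The 20 listed genes summed to 167, 39.9 and 20.9 CPM in hyperplasia, 25.2, 5.27 and 16.3 CPM in tumours and 292 to 372 CPM in wild type. Of 18 measured 0 were called with edgeR, 12 lay below in all tumours and the median was -4.74, or -4.43 with the 6 measured genes at 0 in tumours set to a floor of 3 counts. Of the 18, DESeq2's Wald test called 12 lower, and edgeR without hyperplasia 3 called 7 lower. Nlrp14, an oocyte gene, was at 26.3, 5.94 and 0.527 CPM against 0, 0 and 0.084 CPM (adjusted p = 0.0831). Zp2, of the egg coat, was at 18.3, 4.49 and 0.431 CPM against 0 counts in every tumour (adjusted p = 0.125). Hyperplasia 3 again stood nearest to the tumours.

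Adipocyte genes gave 0 edgeR calls of 7 measured, 5 below in all tumours and a median of -3.98, or -3.15 with the genes at 0 in tumours set to that floor. By DESeq2's Wald test 3 of the 7 were called lower. Adipoq, the fat cell hormone adiponectin, had no count in any tumour, at least 15.4-fold lower than in hyperplasia at a floor of 3 counts over the tumour group, with 2.94, 0.29 and 0.336 CPM in hyperplasia (adjusted p = 0.171). Mitochondrially encoded genes of the respiratory chain gave 0 edgeR calls of 13 measured, with 5 above in all tumours, none below and a median of 0.49 (0.22 without tumour 2). By DESeq2's Wald test 2 of the 13 were called higher. mt-Co1, a subunit of cytochrome oxidase, was at 10384, 7983 and 11737 CPM against 19315, 24328 and 13889 CPM (0.93 ± 0.39, adjusted p = 0.327). The 20 nuclear genes of the chain gave 0 calls, and the sign of their median rested on tumour 2: it was 0.24 with that library and -0.10 without it.

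In all, 11 of the 51 lists held a called gene (3 without tumour 2 and 20 without hyperplasia 3), among them those of lipid-laden macrophages, luteal cells and smooth muscle, of Wnt and TGF-beta signalling, of matrix proteases (Mmp12), hormone receptors (Ptgfr) and neuronal-type genes (Syt1), and of S100 proteins and nuclear RNAs. The lists of theca cells, p53 targets, hypoxia and glycolysis, interferon response, stromal collagens, unfolded protein response, imprinted genes and insulin-like growth factors held none, and their medians lay between -0.62 and 0.39, or between -0.56 and 0.11 without tumour 2. The theca list was at 1234, 1334 and 939 CPM in hyperplasia and 795, 687 and 919 CPM in tumours in sum. Stromal collagens summed to 9431, 17020.1 and 11224 CPM against 12034, 10148 and 12006 CPM, so the matrix genes as a group overlapped.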

How the data were processed

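RNA was extracted with Trizol from mouse ovary and made into stranded TruSeq mRNA libraries, per the labels' protocols, 3 from wild type, 3 from hyperplasia and 3 from granulosa cell tumour. The submitters' processing notes name STAR 2.7.1a, RSEM 1.3.1, FastQC, Picard 2.8.1 and the build GRCm38, and no strand setting. The authors deposited 1 RSEM gene table per library with expected counts, TPM and FPKM. The deposited expected counts are RSEM estimates, 25.6% of those above 0 not whole, and were rounded. The deposited TPM served 2 alternatives and the deposited FPKM were not used. All 55536 gene IDs matched GENCODE M21.

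The test was edgeR 4.0.16 (R 4.3.3) quasi-likelihood on all 9 libraries in 1 fit of 3 groups with 6 residual degrees of freedom. TMM factors were 0.797 (tumour 2) and 0.964 to 1.08 (the others). It used filterByExpr (minimum count 10, total 15) and Benjamini-Hochberg adjustment over 16213 genes at 0.05. The code was also run on simulated counts with the same coefficient of variation for every gene and no library that stood apart. Such counts do not speak for the spread of these libraries. The median SE of a log2 fold change was 0.383, at a common biological coefficient of variation of 0.432. SE is the size of the log2 fold change over the root of F. CPM are TMM-scaled with no prior count; they are not per length and were not compared between genes. Exact Clopper-Pearson 95% intervals and floors (3 counts) cover counting error only. Alternatives used DESeq2 1.42.0 and limma 3.58.1.

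The comparison and the 51 gene lists were chosen with earlier results of these data known. Genes named were those called whose mean over the 6 mutant libraries reached 1 CPM and whose groups did not overlap, leaving out predicted loci, clones, pseudogenes and receptor segments (the 15 of lowest and of highest log2 fold change and the 5 most abundant in each direction), and up to 4 of smallest p in each list; the remaining called genes, 1 clone among them, were added after their values were seen, and a few genes are not reported here. The 20 higher genes and those called without hyperplasia 3 were chosen after their values were seen, as were Spp1, Trem2, Sfrp4, Adgre1, Csf1r, C1qa, Cd36, Ctsk, Scarb1, Parm1, Cyp19a1, Fshr, Amh, Nr5a1, Wt1, Upk3b and Myh11. Promoter windows come from a RefSeq table (GRCm38.p6), which held 11712 of the genes tested.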

Additional observations from a re-analysis of the deposited data

How the results depend on the processing

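Calls moved with nearly every choice. Counts of lower and higher genes were 30 and 0 with DESeq2 size factors, 35 and 0 with upper quartile scaling, 697 and 119 with the DESeq2 Wald test, 4 and 0 with limma-voom, 190 and 9 without a low-count filter, 33 and 0 at 1 CPM in 3 libraries, 74 and 2 with limma on log2(TPM + 1), 114 and 1 on log2(TPM + 0.1), and 1 and 0 in the 6 mutant libraries alone. A term for the shared title stem gave 12 and 0, and leaving out both its libraries 0 and 0 (2351 genes at an unadjusted p under 0.05). Leaving out 1 library at a time gave 0 to 116 lower and 0 to 12 higher genes; without tumour 3 there were 0 calls and 2515 genes at an unadjusted p under 0.05. Without hyperplasia 3 and tumour 2 together, a choice made after seeing the data, there were 123 and 51. The cause of these moves was not tested.

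The 30 were lower in tumours in all 21 settings, which is no separate support. In each of them every tumour lay below every hyperplasia library. The TPM settings moved the median of all genes by -0.28 and -0.34, and the sign of small changes has to be read against that. No fold change is given for Ctsk, Cyp19a1, Fshr, Nr5a1, Parm1, Scarb1, Upk3b and Wt1, whose sign differed between settings. With 3 libraries a group, a median SE of 0.383 and hyperplasia 3 close to tumour 3, a gene that was not called is not shown to be unchanged. Genes under about 1 CPM rest on a few counts in each library, fewest at a given CPM in tumour 2, whose TMM-scaled library size was the smallest. No paired analysis was possible because the labels give the groups no shared replicate numbers, and the title stem links only hyperplasia 3 with tumour 3; the term for that stem is the nearest fit to a block.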

Other observations

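Some genes described above are neighbours in the genome. Zfp41, Gm46519 and 2810039B14Rik lie next to each other on chromosome 15, with gaps of 2.1 and 6.2 kb, Gm46519 on the opposite strand. All 3 were higher in every tumour than in every hyperplasia library: Zfp41 at 53.6, 44.6 and 88.9 CPM against 130.2, 322 and 143 CPM, Gm46519 at 5.3, 2.61 and 23.7 CPM against 25.4, 36.2 and 28 CPM, and 2810039B14Rik at 12.6, 9.13 and 38.7 CPM against 73.2, 137 and 56.6 CPM. With edgeR none was called (adjusted p = 0.143, 0.361 and 0.15), and without hyperplasia 3 the adjusted p was 0.0882, 0.0417 and 0.0417. Adgrv1 and Polr3g, both among the 20 higher genes, lie 40.7 kb apart on the minus strand of chromosome 13. Ehbp1l1 and Neat1, both called lower, lie 98.4 kb apart on the minus strand of chromosome 19. No source used here says how the counting shared reads between close genes.

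Nnat, an imprinted membrane protein gene, was at 66.4, 1124 and 75.7 CPM in tumours 1, 2 and 3 against 21.2, 9.64 and 26.5 CPM in hyperplasia. Its log2 fold change was 4.46 ± 1.13 (edgeR adjusted p = 0.145) and 1.89 without tumour 2 (adjusted p = 0.172), so its size rests on that library while all 3 tumours lay above hyperplasia.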
